A study of Arabidopsis thaliana with 6 samples.

Results

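A set of neighbouring genes of the pepsin-like aspartyl protease family were followed in the root meristem of Arabidopsis thaliana, namely the tandem copies AT1G03220 and AT1G03230 on chromosome 1 and the cluster AT5G19100, AT5G19110 and AT5G19120 on chromosome 5. They were picked by gene identifier, with their RGF1 against Mock values already known, and make up 5 of the 30424 genes in the count tables. The RNA-seq libraries came from Col-0 seedlings, homozygous for the transgene HYP2-GFP, that were 6 days old and stood for 1 h in liquid medium with water (Mock, 3 libraries) or with 100 nM RGF1 (RGF1, 3 libraries). Both groups carried the reporter, whose fluorescence guided the dissection of the meristematic zone, and each library held RNA pooled from 20 root sections. Total counts ran from 5421243 to 9495012 per library. The title of the series links RGF1, a peptide that maintains the root meristem, to reactive oxygen species, and the design sets transcripts with and without 1 h of peptide against each other.

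Pepsin-like aspartyl proteases cut peptide bonds with a pair of aspartates, each set in an Asp-Thr-Gly or Asp-Ser-Gly tripeptide, and many plant members are secreted to the cell wall space. Some plant relatives keep the fold but act as inhibitors of microbial wall-degrading enzymes, such as the xylanase inhibitors of wheat and the xyloglucan endoglucanase inhibitor of tomato. AT1G03220 and AT1G03230 have been described in leaves as SAP1 and SAP2, secreted proteases that act against a bacterial pathogen. The annotation calls each of the 5 genes a eukaryotic aspartyl protease family protein.

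The genes of the chromosome 1 pair are close copies, and those of the chromosome 5 cluster are not. AT1G03220 (chromosome 1, 786832 to 788722 in TAIR10.1, plus strand, a single exon) and AT1G03230 (chromosome 1, 789820 to 791689, plus strand, a single exon) lie 1097 bp apart, and their translated coding sequences share 89.8% of 433 aligned residues. AT5G19100 (chromosome 5, 6408007 to 6409666, minus strand, a single exon), AT5G19110 (6411443 to 6413311, minus strand, 2 exons) and AT5G19120 (6414488 to 6415907, plus strand, a single exon) share 30.4% to 36.2% of residues among themselves, and 33.9% to 39.0% with the pair. The Asp-Thr-Gly or Asp-Ser-Gly tripeptide occurred 0 times in the translated products of AT1G03220, AT1G03230, AT5G19100 and AT5G19120 and at 1 place in that of AT5G19110. By contrast, 59 of the 68 other aspartyl protease genes encoded 2 or more such tripeptides, 6 encoded 1 and 3 encoded 0. No other gene model overlapped any of the 5 genes.

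Because the pair is so alike, the stretch that both transcripts share letter for letter is shown first. It is 95 bases long, lies in the coding part of each gene near its end (chr1:788328-788422 in AT1G03220 and chr1:791298-791392 in AT1G03230, plus strand), and a read that falls wholly inside it cannot be assigned to 1 copy.
Shared coding stretch: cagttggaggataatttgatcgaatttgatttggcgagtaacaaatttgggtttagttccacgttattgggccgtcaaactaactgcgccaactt
Of all 50-base windows of the AT1G03220 transcript, 6.35% occur in AT1G03230, and of all 100-base windows 0%. The transcripts were 87.9% identical over 1634 bp, and no transcript of another gene matched any of the 5 at 95% identity over 100 bp.

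The 250 bases before the annotated start are shown for AT1G03230 and AT5G19100, a gene that stood higher and a gene that stood lower in each RGF1 library than in each Mock library (TAIR10.1, read 5′ to 3′ on the gene's strand). Capitals mark matches on either strand to TTGAC (the W-box core bound by WRKY factors), GCCGCC (the GCC box of ethylene response factors), TGACG (the core bound by TGA factors) or CACGTG (the G-box), of which TTGAC and TGACG can overlap. The regions are chr1:789570-789819 on the plus strand and chr5:6409667-6409916 on the minus strand.
AT1G03230: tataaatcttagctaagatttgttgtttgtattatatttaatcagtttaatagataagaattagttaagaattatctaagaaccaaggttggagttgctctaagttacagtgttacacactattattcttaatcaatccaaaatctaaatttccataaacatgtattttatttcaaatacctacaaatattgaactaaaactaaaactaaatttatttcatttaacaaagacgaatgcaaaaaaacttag
AT5G19100: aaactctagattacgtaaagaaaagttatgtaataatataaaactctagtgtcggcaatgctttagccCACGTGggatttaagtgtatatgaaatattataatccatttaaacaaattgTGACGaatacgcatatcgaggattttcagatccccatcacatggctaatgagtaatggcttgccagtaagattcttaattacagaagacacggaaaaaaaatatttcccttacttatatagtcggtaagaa
AT1G03230 held 0 matches to these motifs. Counted from 250 bases before to 50 after the start, TTGAC occurs in 50.5% of the 27443 protein-coding promoters of the genome, TGACG in 23.1%, CACGTG in 7.68% and GCCGCC in 2.57%. AT5G19100 held CACGTG and TGACG once each, AT5G19120 held CACGTG and TTGAC once each, and AT5G19110 held 0 matches.

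After 1 h of RGF1 both copies of the chromosome 1 pair stood far above their Mock levels. In Mock replicates 1 to 3 AT1G03220 had 26.7, 34.5 and 54.9 CPM (counts scaled to library size with TMM factors), and after RGF1 it had 386, 243 and 410 CPM in the same order. The lowest RGF1 library was well above the highest Mock library. Its mean went from 38.7 ± 14.6 to 346 ± 90.2 CPM (SD, n = 3), 8.97-fold in the edgeR fit, a log2 fold change of 3.17 ± 0.33 (SE). AT1G03230 gave Mock values of 85.2, 90.0 and 82.2 CPM and RGF1 values of 445, 350 and 434 CPM, again with no overlap. Its mean went from 85.8 ± 3.94 to 410 ± 51.9 CPM (SD, n = 3), 4.78-fold, a log2 fold change of 2.26 ± 0.24 (SE). The Mock values of AT1G03230 lay close together, while AT1G03220 had its lowest Mock value in replicate 1 and its highest in replicate 3.

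edgeR called 2 of the 5 genes higher (adjusted p below 0.05 over all 16737 genes tested), namely AT1G03220 and AT1G03230, and 0 of the 5 lower. Over all genes tested 0.466% were called higher and 0.0299% lower, and because the 5 genes were chosen on this contrast their calls are a description only. For the same 2 genes the 3 RGF1 libraries lay above the 3 Mock libraries, as they did in 7.3% of the genes tested, and for AT5G19100 they lay below, as in 6.18%. Both copies stayed called in each of the 12 alternative settings, with log2 fold changes of 2.96 to 3.49 for AT1G03220 and 2.20 to 2.35 for AT1G03230. In these dissected pieces, a change in the share of cells that express a gene and a change in RNA per cell cannot be told apart.

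**Figure D1:**
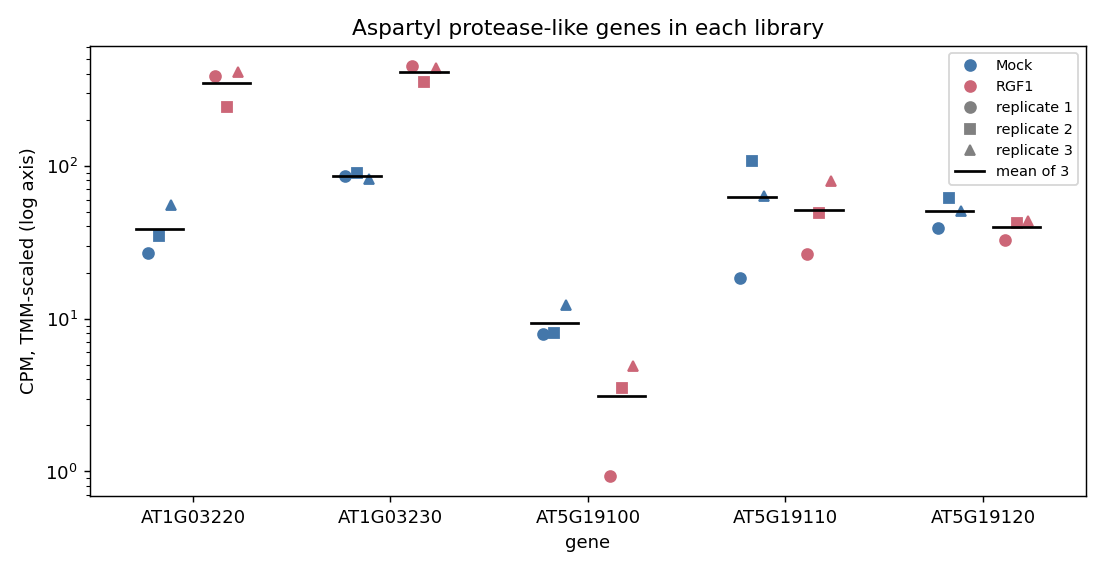
CPM of the 5 genes in each library on a log axis, with Mock in blue, RGF1 in red, the replicate number as the marker shape and the mean of 3 as a black bar. AT1G03220 and AT1G03230 sit between 243 and 445 CPM after RGF1 against 26.7 to 90.0 CPM in Mock, AT5G19100 is lower after RGF1 in each library, and AT5G19110 and AT5G19120 overlap.

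Taken as a pair, the copies reached 832, 593 and 844 CPM after RGF1 against 112, 124 and 137 CPM in Mock. Per kilobase of exon, AT1G03230 stood at 45.9 ± 2.11 and AT1G03220 at 20.5 ± 7.70 CPM per kb in Mock (SD, n = 3), above 85.5% and 66.2% of the 16588 tested genes with an annotated length. After RGF1 they stood at 219 ± 27.8 and 183 ± 47.7 CPM per kb, above 97.7% and 97.2% of them. RGF1 replicate 2 gave the lowest value of the 3 RGF1 libraries for each copy.

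The balance between the copies lay closer to AT1G03220 after RGF1 than in Mock. Within each library, the ratio of AT1G03220 to AT1G03230 in counts per exon length was 0.311, 0.380 and 0.661 for Mock, replicates 1 to 3, and 0.857, 0.686 and 0.934 for RGF1. AT1G03230 was thus the higher copy in each of the 6 libraries. On the log2 scale the ratio was -1.23 ± 0.56 in Mock and -0.29 ± 0.23 after RGF1 (SD, n = 3), a difference of 0.94. The groups barely missed each other, with -0.60 in Mock replicate 3 and -0.54 in RGF1 replicate 2. Between libraries of the same replicate number the log2 ratio differed by 1.46, 0.85 and 0.50 in numbers 1, 2 and 3, in each case toward AT1G03220 after RGF1. Fold changes within numbers were 14.3, 7.01 and 7.44 for AT1G03220 and 5.22, 3.89 and 5.27 for AT1G03230. How reads that match both copies were counted is not given in the sources used here, and its part in the ratio was not tested.

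**Figure D2:**
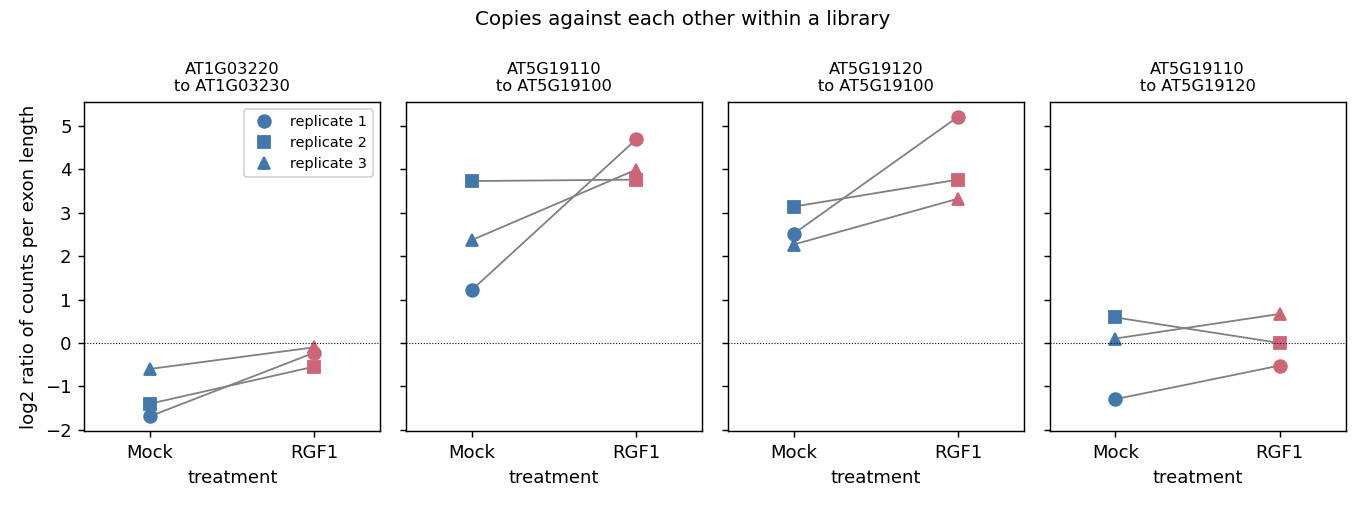
Log2 ratio of counts per exon length between 2 copies within a library, in Mock and RGF1, with grey lines joining libraries of the same replicate number and a dotted line at equal level. AT1G03220 lies below AT1G03230 in each library and nearer to it after RGF1, and both AT5G19110 and AT5G19120 lie above AT5G19100 in each library.

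None of the chromosome 5 genes had a higher mean after RGF1. AT5G19100, the least abundant of the 5, had 74, 72 and 78 counts across Mock replicates 1 to 3 and 9, 24 and 26 counts across the RGF1 replicates, or 7.93, 8.06 and 12.2 CPM against 0.938, 3.52 and 4.90 CPM. Each RGF1 library was below each Mock library. The log2 fold change was -1.61 ± 0.72 (SE), 3.04-fold lower, and edgeR did not call the gene. Without RGF1 replicate 1, which held the lowest value, it was -1.15, and without RGF1 replicate 3 it was -2.09.

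AT5G19110 varied more between replicates than between treatments. Mock replicates 1 to 3 gave 18.3, 107 and 62.9 CPM, and the RGF1 values of 26.4, 48.9 and 79.5 CPM all lie inside that range. Its log2 fold change was -0.28 ± 0.53 (SE), and the sign turned without Mock replicate 2 (0.35) and without RGF1 replicate 1 (0.038). Within replicate numbers 1, 2 and 3 its log2 change was 0.52, -1.12 and 0.34.

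For AT5G19120 the Mock values were 39.1, 61.4 and 50.8 CPM and the RGF1 values 32.8, 42.4 and 43.3 CPM. The groups overlapped, and the log2 fold change was -0.35 ± 0.29 (SE), with changes of -0.25, -0.53 and -0.23 within numbers 1, 2 and 3. It was lower in RGF1 than in Mock in 3 of 3 replicate numbers.

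Per exon length, AT5G19110 and AT5G19120 were level with each other, and AT5G19100 was far below them. In Mock they stood at 38.3 ± 27.0, 35.5 ± 7.87 and 5.67 ± 1.47 CPM per kb (SD, n = 3), in that order, so that AT5G19110 and AT5G19120 do not differ beyond their spread. The log2 ratio of AT5G19110 to AT5G19120 was -0.20 ± 0.98 in Mock and 0.050 ± 0.60 after RGF1. That of AT5G19120 to AT5G19100 was 2.64 ± 0.45 in Mock and 4.10 ± 0.99 after RGF1. The groups did not overlap, but Mock replicate 2, at 3.14, lay near RGF1 replicate 3, at 3.32. The highest value, 5.21 in RGF1 replicate 1, rests on 9 counts of AT5G19100. AT5G19110 to AT5G19100 gave 2.44 ± 1.26 and 4.15 ± 0.48, and here Mock replicate 2, at 3.73, lay just under the lowest RGF1 library, at 3.76. In Mock the order of the 5 genes per exon length ran AT1G03230, AT5G19110, AT5G19120, AT1G03220 and AT5G19100. AT1G03230, AT5G19120 and AT1G03220 each lay within 1 SD of the AT5G19110 mean, and AT5G19100 lay below that range. The SD of AT5G19110 is wide, and AT1G03230 still stood above AT1G03220 in each Mock library.

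In the rest of the aspartyl protease family edgeR called no gene. The list of genes whose product names an aspartyl protease held 68 besides the 5, of which 39 passed the filter on low counts and 16 had 0 counts in the 6 libraries. Against 0 calls of edgeR among the 39, in either direction, DESeq2 made 1, the replicate block 1 and limma voom 0, and 5 genes had an unadjusted edgeR p under 0.05, as did 1298 of the 16737 genes tested, which is the background for the counts at this p in every list. Over all genes these tools called 1.65%, 1.8% and 0.412% in either direction. The main edgeR fit called 0.466% higher and 0.0299% lower, so 0 calls in this list or the shorter ones below carry little weight. The 39 genes had a median log2 fold change of -0.13, beside -0.01 over all genes tested, and ranged from -1.96 to 1.64.

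AT3G59080, a family member with no role given in the annotation, had the smallest p of the 39, and its values went from 6.16 to 11.3 CPM in Mock to 18.2 to 35.6 CPM after RGF1. Its log2 fold change of 1.64 ± 0.43 (SE) missed the threshold (edgeR adjusted p = 0.182), while with the replicate block it was called (edgeR adjusted p = 0.0460), as it was with DESeq2 (adjusted p = 0.0229). AT1G09750, known as AED3, an apoplastic protein linked to systemic immunity, had 27.5 to 52.5 CPM in Mock and 15.0 to 22.2 CPM after RGF1. Its log2 fold change was -1.27 ± 0.36 (SE; edgeR adjusted p = 0.229).

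**Figure D3:**
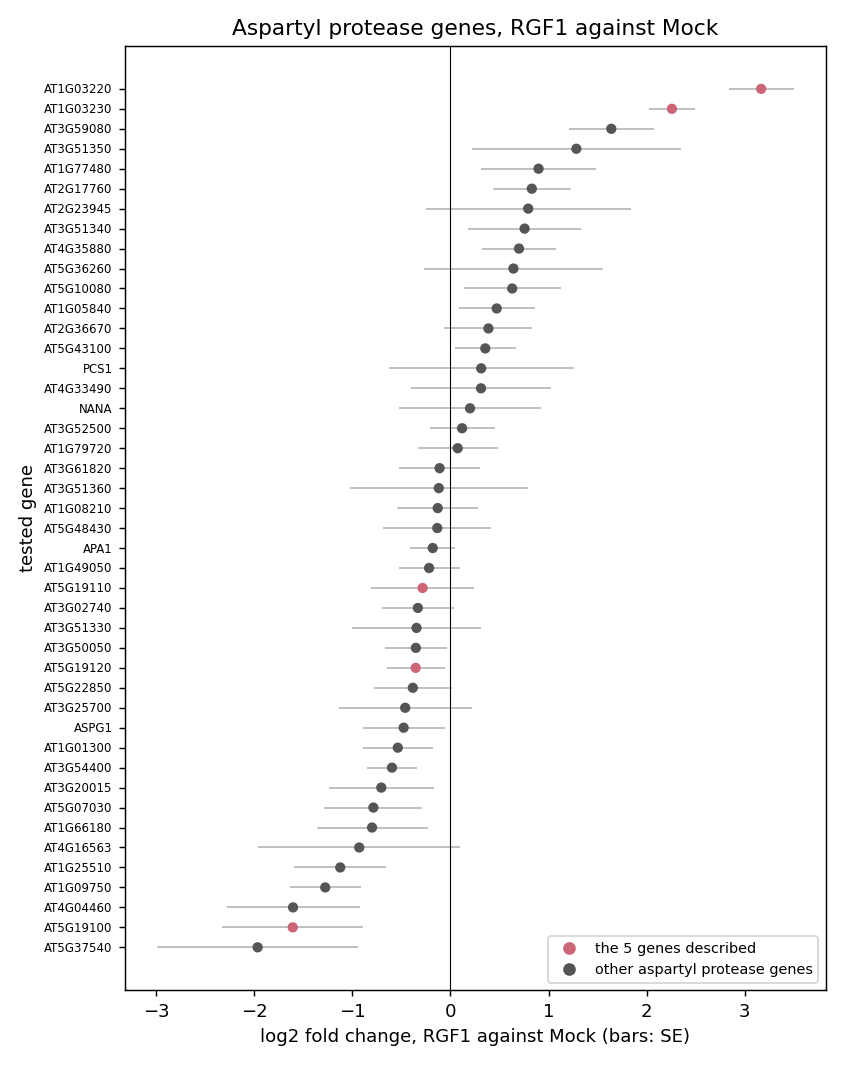
Log2 fold change of RGF1 against Mock with its SE for the 44 tested aspartyl protease genes, in order of size, with the 5 genes described in red. AT1G03220 (3.17) and AT1G03230 (2.26) are at the top, followed by AT3G59080 (1.64), while AT5G19110, AT5G19120 and AT5G19100 are below 0.

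The relatives nearest to the pair by protein were far apart from it in sequence. AT2G35615 shared 35.3% of aligned residues with it at best and had 0 counts, AT5G48430 shared 34.4%, and AT3G25700 shared 32.4%. AT5G48430 had 21.8 to 146 CPM in Mock and 37.9 to 80.3 CPM after RGF1, a log2 fold change of -0.13 ± 0.55 (SE; edgeR adjusted p = 0.988). AT3G25700 had -0.46 ± 0.68 (SE; edgeR adjusted p = 0.942). For the chromosome 5 cluster the nearest were AT1G01300 (33.1%), AT5G10770 (33.0%) and AT4G22050 (33.0%). Of these AT1G01300 was tested, with a log2 fold change of -0.54 ± 0.35 (SE; edgeR adjusted p = 0.805).

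The pair held a far greater part of the family's transcripts after RGF1. Of the CPM per kb summed over the 73 family genes, the pair took 6.46%, 6.74% and 8.25% in the Mock libraries, in order of replicate, and 38.4%, 28.7% and 40.3% in the RGF1 libraries. The chromosome 5 cluster took 4.71% to 11.5% in Mock and 3.45% to 7.36% after RGF1. In Mock, AT1G03230 was the third and AT1G03220 the 12th most abundant of the 73 per exon length, below AT3G54400 (217 CPM per kb) and APA1 (108 CPM per kb), a vacuolar aspartic proteinase. After RGF1 they were the first and the second, with AT3G54400 at 144 and APA1 at 95.4 CPM per kb. AT3G54400 and APA1 were named after their levels were seen, and neither was called (edgeR adjusted p = 0.586 and 0.929). The other 68 genes together summed to 730 to 820 CPM per kb in Mock and 583 to 723 after RGF1.

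**Figure D4:**
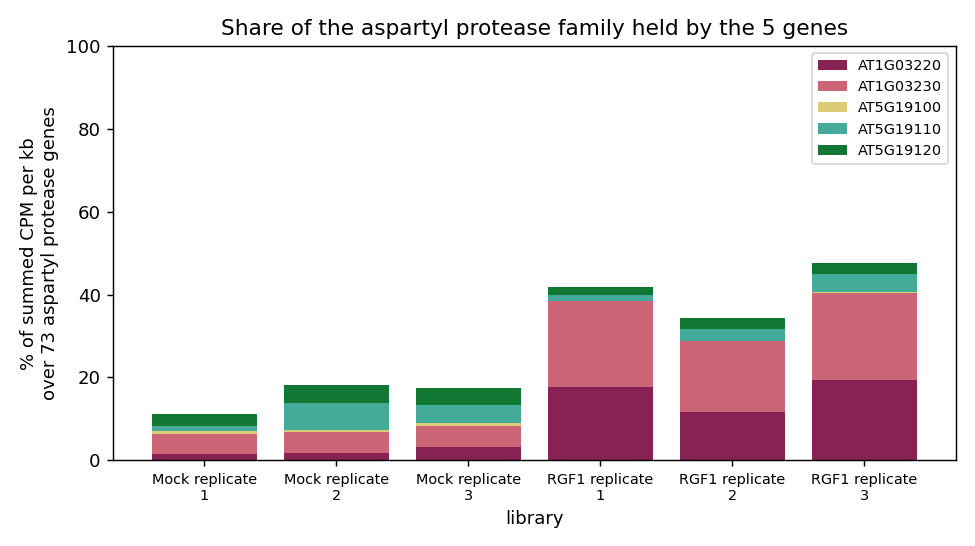
Share of the CPM per kb summed over 73 aspartyl protease genes that each of the 5 genes held, by library. AT1G03220 and AT1G03230 together hold 6.46% to 8.25% in the Mock libraries and 28.7% to 40.3% in the RGF1 libraries.

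Among other protease classes and their inhibitors, 1 gene was called. AT2G38870, a serine protease inhibitor of the potato inhibitor I type, a family known in wound and pathogen responses, had 1.10 to 3.02 CPM in Mock and 26.4 to 54.8 CPM after RGF1. This gene rose, at 4.26 ± 0.50 (log2 fold change with SE; edgeR adjusted p = 0.00126). It was the only called member of the 18 tested protease inhibitors, whose median log2 fold change was -0.07. The runner-up in that list, the serpin gene AT2G26390, had 7.88 ± 4.48 CPM in Mock and 1.79 ± 0.606 after RGF1 (edgeR adjusted p = 0.440).

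Of 19 tested subtilases, 0 were called by edgeR, DESeq2 or limma voom, 0 had an unadjusted p under 0.05, and the median log2 fold change was -0.37. The smallest p belonged to AT5G44530 and AT3G14067 (edgeR adjusted p = 0.659 and 0.687). Of 30 tested genes named as cysteine proteases, edgeR called 0, DESeq2 0 and limma voom 0, 2 had an unadjusted p under 0.05, and the median was -0.20. CEP2, a papain-like endopeptidase, had 97.0 to 108 CPM in Mock and 34.3 to 63.1 after RGF1, a log2 fold change of -1.03 ± 0.28 (SE; edgeR adjusted p = 0.207), and was called with the replicate block (edgeR adjusted p = 0.0493). ESD4, a SUMO protease of the nucleus, had 0.62 ± 0.26 (SE; edgeR adjusted p = 0.577).

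The genes around both loci gave no call. Of the 20 nearest genes in the tables, 5 on each side of each locus, 12 were tested, edgeR called 0, DESeq2 0 and limma voom 0, and 1 had an unadjusted p under 0.05. Over all genes tested edgeR called 0.466% higher and 0.0299% lower, so 0 calls among 12 genes say little of the neighbourhood. Beside the pair, AT1G03210 had 36.4 ± 4.29 CPM in Mock and 32.7 ± 4.26 after RGF1 (SD, n = 3), and AT1G03240 had 2 counts in Mock and 5 after RGF1. Just 12 bp beyond AT5G19120, AT5G19130, which encodes a GPI transamidase component, had 86.6 ± 19.5 and 63.7 ± 21.9 CPM (SD, n = 3; edgeR adjusted p = 0.822). The 5 models before AT5G19100 are non-coding and held 0 to 5 counts in all, so AT5G19090, the nearest protein-coding gene on that side, was added after this was seen. It had 48.7 ± 3.34 CPM in Mock and 49.4 ± 8.13 after RGF1 (SD, n = 3).

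The patterns most like each gene were ranked by Pearson's r of log2 CPM over the 6 libraries, given as a description, since a difference between the treatments alone makes such values high. For AT1G03220 these were the glutathione transferase gene GSTU24 (r = 0.996), WRKY45 (0.994) and the carrier gene PM-ANT (0.991). GSTU24 had a mean of 14.1 CPM in Mock and 61.2 after RGF1. For AT1G03230 they were NAC042 (0.999), the berberine bridge enzyme-like gene AT1G26380 (0.998) and the splicing factor gene AT5G64270 (0.997). NAC042 and AT1G26380 had 0 counts in Mock and 24.8 and 4.15 CPM after RGF1, while AT5G64270 went only from 82.9 to 98.0 CPM, so that likeness of pattern says nothing of size.

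AT1G03220 and AT1G03230 had r = 0.977 with each other. AT5G19110 and AT5G19120 had r = 0.808, AT5G19100 and AT5G19120 0.748, and AT5G19100 and AT5G19110 0.375. With AT1G03220 and AT1G03230, in that order, AT5G19110 had 0.041 and -0.047, AT5G19100 -0.754 and -0.814, and AT5G19120 -0.548 and -0.604. The genes most like AT5G19100 were AT5G02170 (0.996), AT1G54200 (0.993) and NKS1 (0.993). Those most like AT5G19110 were PRA8 (0.995), CYP705A30 (0.984) and AT3G05810 (0.984), and those most like AT5G19120 were BSL2 (0.992), BAM2 (0.983) and GAUT7 (0.981).

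Markers of the meristem and of neighbouring tissues were compared with these changes, and edgeR called 0 of the marker genes tested. The summed level of 5 meristem markers was 73.7 to 86.5 CPM in Mock and 62.3 to 142 CPM after RGF1, with the quiescent centre gene WOX5 at 2 counts over the 6 libraries. The 5 markers of maturing xylem summed to 33.1 to 51.1 CPM in Mock and 12.5 to 26.6 CPM after RGF1, with no overlap, the same direction as AT5G19100, and their part in its lower level was not tested. XCP2 was the largest part of that sum, with means of 30.2 CPM in Mock and 11.4 after RGF1. XCP1 (5.19 and 1.33) and IRX3 (5.44 and 2.11) were also lower, CESA4 was level (3.30 and 3.26), and IRX1 was scarce (0.716 and 0.489). The 4 root cap markers summed to 5.04 to 23.5 and 2.50 to 26.7 CPM, and the 5 root hair markers to 27.1 to 63.8 and 30.3 to 47.6 CPM, in Mock and RGF1. The 4 endodermis markers ran from 0.157 to 32.9 CPM in Mock and from 1.67 to 9.98 CPM after RGF1. The 5 shoot and photosynthesis markers ran from 135 to 675 CPM in Mock and from 21.4 to 331 CPM after RGF1. None of these other lists was separated by treatment, as AT1G03220 and AT1G03230 were.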

How the data were processed

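Read counts per gene were used as the authors deposited them, 1 table of whole numbers per library, with no normalisation. TopHat2 2.1.1, HTSeq, DESeq2 and build TAIR10 appear in the submitters' processing notes, without roles or settings. The annotation release and the handling of strand and of multiple matches were not given in the sources used here. Each library came from 50 ng of total RNA amplified to cDNA, per the labels' protocols, without molecular identifiers, so a floor of 3 counts (0.313 to 0.565 CPM by library) covers counting error only. The labels do not say whether replicates came from separate plates, so the p-values rest on a spread between samples that could be technical. No 2 libraries agreed within sampling noise (chi-square per degree of freedom of 19.7 for the closest pair). That pair was Mock replicate 3 and RGF1 replicate 3, which share a replicate number and not a treatment. These 2 libraries also had the lowest total counts (6451658 and 5421243). The measure was taken on unscaled counts and grows with depth, so closeness by replicate number cannot be told apart from low depth here.

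The comparison of RGF1 with Mock used the quasi-likelihood F test of edgeR 4.0.16 in R 4.3.3, TMM scaling, the default expression filter and Benjamini-Hochberg adjustment over 16737 genes. Standard errors were derived from the F statistic. On simulated data the fit recovered 10% of 2-fold, 64% of 4-fold, 88% of 8-fold and 96% of 16-fold changes, with 5 false calls among 134. A gene that was not called may thus still have changed, above all by 4-fold or less. Alternatives were DESeq2 1.42.0, limma voom 3.58.1, 2 other scalings, no filter, the replicate block and leaving out each library. Same-numbered libraries deviated together (correlations of 0.177, 0.214 and 0.299 over genes, against -0.166 to -0.0433 for other numbers), so changes within numbers are also given. Deviations within a group cancel, so the negative values follow in part from the positive ones and add little to them. The labels do not say that the numbers pair samples. The main fit left the replicate number out, and the replicate block is the alternative that included it. Ratios between copies used counts plus 1 over the exon length of the longest transcript. Positions, products, lengths and sequences are from RefSeq's TAIR10.1 annotation. Proteins were translated from it and aligned with Biopython 1.88, and transcripts were searched with BLAST 2.17.0.

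The members, lists and tests were chosen with earlier results of these data known. Named genes were the 5 members, up to 4 called genes of each list or else the 2 with the smallest p, called and adjoining flanking genes, the 3 nearest relatives of each locus and the 3 genes most like each member. Upstream sequences other than those shown are not reported here.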

Additional observations from a re-analysis of the deposited data

How the results depend on the processing

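The 5 log2 fold changes and the copy ratios moved by less than 1 SD between replicates under each alternative run. Leaving out 1 of 3 libraries can hardly move a mean by 1 SD of those 3, so the small shifts in such runs show little. The calls of AT1G03220 and AT1G03230 held in 12 of 12, and none of the chromosome 5 genes was called in any. Counts over all genes moved more. With no low-count filter 176 genes were called higher and 46 lower, with DESeq2 234 and 81, and with the replicate block 208 and 94, against 78 and 5. Leaving out 1 library gave 39 (without RGF1 replicate 1) to 113 higher, with 49 without Mock replicate 2, and 1 (without RGF1 replicate 1 or Mock replicate 2) to 5 lower, with 3 without RGF1 replicate 3. The cause was not tested. Of the other aspartyl protease genes, DESeq2 and the replicate block each called 1 higher against 0, and of the other proteases and inhibitors the block called 1 lower against 0. The replicate block changed no other call described here. Low counts limit AT5G19100, with 9 in RGF1 replicate 1.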
